A study of Canis lupus familiaris with 6 samples.

Results

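The microRNA miR-489 (listed as cfa-miR-489) was followed in sorted cells of 3 canine mammary cancer cell lines. It is 1 of the 289 canine miRNAs on the array and was taken by name, after its total signals had been seen to be brighter on both dim arrays attached to the line CMT-U27 than on the bright arrays. miR-489 was thus chosen by those total signals, which are given here as a description with no test. Each line (P114, CMT-U27 or CMT-U309) was split by flow cytometry on stem cell antigen 1 (Sca1), a surface protein by which stem-like cells are often enriched. The Sca1+ cells, which the labels call cancer stem cells, were set against the Sca1- cells, which the labels call the control, with 1 sample of each fraction per line and so 3 samples per fraction. All lines were kept in the same medium with fetal bovine serum. The titles of the P114 samples do not mention macrophages, but their descriptions say the cells grew with them, while the other samples are described as mono-culture. Nothing says how the cultures were separated, so any p-value measures only the spread between these samples.

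The 6 arrays stand apart in brightness, and their labels conflict, so each is named by its brightness. The bright arrays B1, B2 and B3 detected between 89 and 111 miRNAs, with summed total signals between 69282 and 70794 intensity units. Of the dim arrays, D1 detected 39 miRNAs (sum 3228), D2 22 (sum 1277) and D3 9 (sum 319.5). By the sample to which each scanner file is attached, D1 and D2 are the Sca1+ and Sca1- cells of CMT-U27, B1 and B2 those of CMT-U309, and D3 and B3 those of P114. The deposited value table holds the same arrays under other names. There D1 and B2 are the Sca1+ and Sca1- cells of CMT-U27, D2 and D3 those of CMT-U309, and B1 and B3 those of P114. No source used here settles which assignment is right, and both are given wherever a result depends on it.

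A miRNA is a short RNA that guides a silencing complex to messenger RNAs, chiefly through the seed near its 5′ end. In human and mouse, miR-489 and miR-653 are cut from transcripts of 1 intron of CALCR, the gene of the calcitonin receptor. In mouse muscle, miR-489 is known for keeping satellite cells, the stem cells of that tissue, quiescent by repressing the oncogene Dek. In human breast cancer cells it is known to repress the receptor HER2 and the phosphatase SHP2, both of which drive growth signals.

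The array reads miR-489 with 2 probes of 20 spots each, shown because every value below comes from them. They are written 5′ to 3′, and the capital marks the base that only the longer probe has.
miR-489, 14-base probe: gccgccgtatatgt
miR-489, 15-base probe: gccgccgtatatgtG
The longer probe pairs with the letters cacatatacggcggc of the miRNA (its reverse complement). The file headers place the array annotation on the dog build canFam2, where the longer probe is listed at chr14:21927543-21927556 and the shorter at chr14:21927544-21927556. The positions are given with the higher number first, the strand is not stated separately, and on all 582 probes with a single position the listed span is 1 base shorter than the probe. In the RefSeq gene table for the assembly UU_Cfam_GSD_1.0, the dog genes MIR489 and MIR653 both lie within CALCR. The longest run of bases that either miR-489 probe shares with a probe of another miRNA is 7, with miR-202. The 2 probes were short and rich in G and C for this array, at 57.1% and 60.0% G and C against a median of 47.1% over the 656 probes, whose median length was 17 bases.

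Within CMT-U27 by scanner file, miR-489 was bright in both fractions. The total gene signal, a sum over the probes of the miRNA that Feature Extraction gives in linear intensity units, was 121.9 on D1 (Sca1+) and 132.8 on D2 (Sca1-). In CMT-U309 it was 39.2 on B1 (Sca1+), and on B2 (Sca1-) miR-489 was not detected. In P114 it was detected neither on D3 (Sca1+) nor on B3 (Sca1-). The signal was therefore higher on both dim CMT-U27 arrays than on each bright array. The difference, D1 minus D2, was -10.96 units, smaller in size than its combined error of 14.5 from the errors that Feature Extraction gives. The signal on D1 was 3.11 times, and that on D2 3.38 times, that on B1. These signals are as deposited, with no scaling between arrays. In such bulk RNA, fewer cells that hold miR-489 and less of it per cell cannot be told apart.

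The spots show the same order. On D1 the spots of the 14-base probe ran from 41.2 to 59.1, with a mean of 50.3 ± 5.17 (SD, n = 20 spots), and those of the 15-base probe from 30.7 to 53.8, with a mean of 41.5 ± 5.63. On D2 the 14-base probe ran from 46.4 to 54.8, with a mean of 50.1 ± 2.52, and the 15-base probe from 39.8 to 64.2, with a mean of 50.6 ± 6.36. The 2 probes thus read alike on D2, while the shorter was the brighter on D1, by 1.21 times. On B1 the 14-base probe ran from 10.4 to 22.7, with a mean of 15.9 ± 2.81, and the 15-base probe from 8.75 to 20.7, with a mean of 13.0 ± 3.099. Every spot on D1 and D2 was brighter than every spot on B1. Spots of 1 probe on 1 array are technical repeats of a single sample, so their SD is no measure of the spread between samples.

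Arrays on which miR-489 was not detected were not equally dark. On B2 the means were -2.02 ± 3.11 for the 14-base and -0.04 ± 4.05 for the 15-base probe (SD, n = 20 spots). On D3 they were 7.14 ± 2.28 and 8.05 ± 3.61, and on B3 4.96 ± 3.003 and 4.71 ± 4.03. Without the spots flagged as outliers, the brightest 14-base spot was 1.15 on B2, 9.36 on D3 and 8.59 on B3, all below the dimmest 14-base spot on B1, 10.4. For the 15-base probe the spots of D3 reached 9.63 and those of B3 7.98, and those of D3 overlapped the spots of B1. Without outliers the brighter and the dimmer probe had means of 6.96 and 6.77 on D3 and of 4.54 and 3.96 on B3. The difference between these arrays was not tested.

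**Figure D1:**
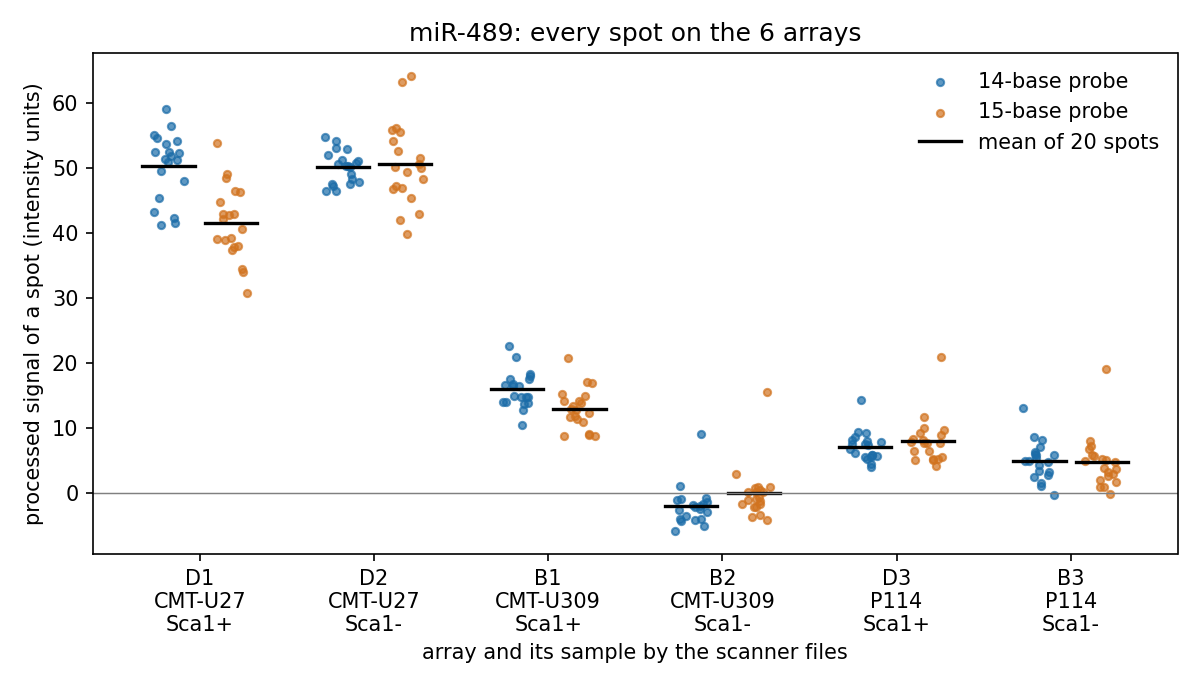
Processed signal of each miR-489 spot (intensity units, background-subtracted, not scaled) on the 6 arrays, with 20 spots per probe. The bars are means over all 20 spots, outliers included: D1 and D2 stand between 41.5 and 50.6, B1 at 15.9 and 13.0, and B2, D3 and B3 at 8.05 or below.

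Detection flags place D3 between B1 and B2. All 40 spots on D1 and all 40 on D2 were well above background, as were 26 of 40 on B1. Of 40 spots, 0 passed that flag on B2, 2 on D3 and 1 on B3, and those on D3 and B3 were all flagged as outliers. The weaker flag, positive and significant against the local background, was met by 40 of 40 spots on D1, D2, B1 and D3, by 28 on B3 and by 2 on B2. As background, 384 probes belong to the 165 miRNAs detected on no array, and between 9.59% and 16.1% of their spots met the weaker flag on the 6 arrays. No probe of those 384 met it on all its spots on D3, while both miR-489 probes did. Without outlier spots, both miR-489 probes were brighter than all 384 of these probes on D1, D2, B1 and D3, than 372 of them on B3 and than 126 of them on B2. On D1, D2 and B1 this was nearly fixed in advance, since miR-489 was detected there and the 384 are of miRNAs detected nowhere. The miR-489 means without outliers on D3, 6.96 and 6.77, lay above the median of the negative control spots there, 3.55. They lay below the 95th percentile of those control spots, 7.46. That percentile is of single spots, which vary more than means over spots, so it does not place the miR-489 means within background. Feature Extraction gave no detection on D3. The 40 spots were spread over rows 4 to 192 of 192 and columns 3 to 82 of 82.

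By its rank, miR-489 was among the leading miRNAs on the dim CMT-U27 arrays and a minor one on B1. On D1 it was the 8th brightest of 39 detected miRNAs, between miR-29a (125.9) and miR-125b (103.3), and made up 3.78% of the summed signal. On D2 it ranked 2nd of 22, between miR-494 (512.7) and miR-21 (112.9), with 10.4% of the sum. On B1 it ranked 87th of 111, between miR-324 (39.6) and miR-34a (37.5), with 0.0567% of the sum. The tumour-associated miRNA miR-21 made up 20.02% of the sum on D1, 8.85% on D2 and 26.2% on B1. Shares set miR-489 against the other miRNAs of the same array, and different probes do not read molecules with equal yield. The share of miR-489 was 0.363 times as high on D1 as on D2, while the summed signal was 2.53 times as high on D1.

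**Figure D2:**
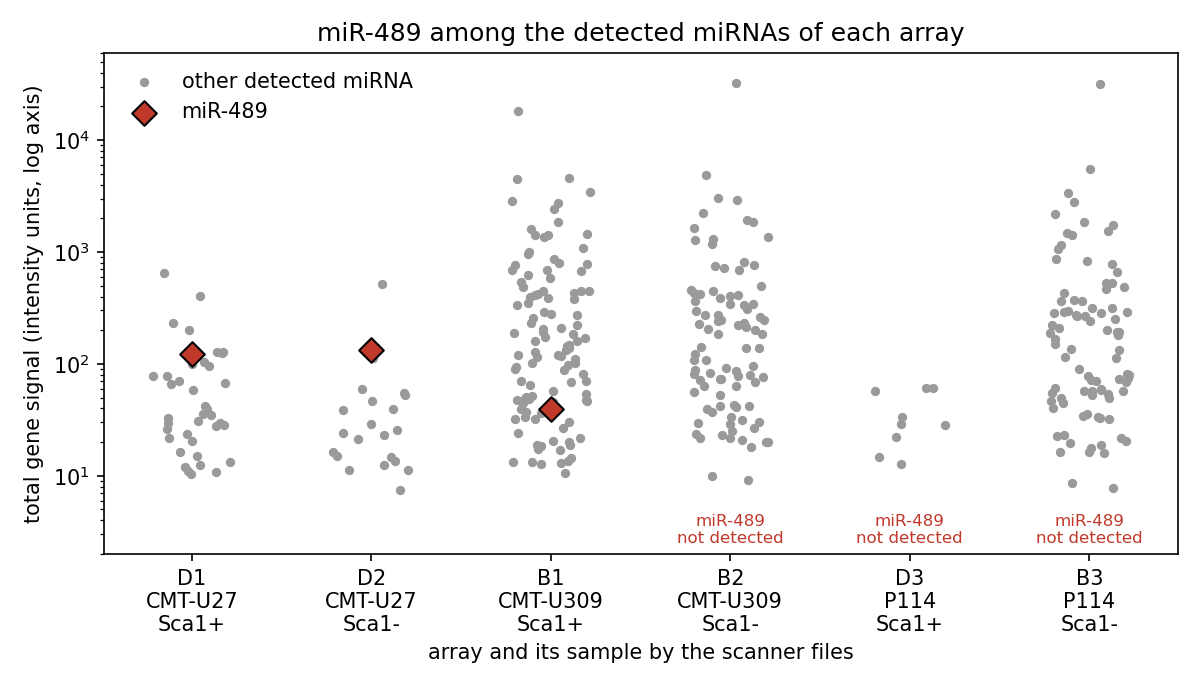
Total gene signal (intensity units, log axis) of each detected miRNA on the 6 arrays, with miR-489 as a red diamond where it was detected. It ranks 8th of 39 on D1, 2nd of 22 on D2 and 87th of 111 on B1.

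Against B1, every other miRNA detected on both arrays of the pair was dimmer on D1 and on D2. For the 37 other miRNAs detected on both D1 and B1, the ratio of D1 over B1 had a median of 0.0572 and a highest value of 0.945, for miR-223, against 3.11 for miR-489. For the 20 other miRNAs detected on D2 and B1 the median was 0.0171 and the highest 0.858, again for miR-223, against 3.38 for miR-489. miR-223, a myeloid miRNA, was nearly flat over all arrays, between 59.6 and 80.9. Of 17 miRNAs detected on both D1 and D2, 16 were also detected on every bright array, and the 1 left was miR-489. Of all ratios of D1 or D2 over a bright array, 1 of another miRNA was above 1, that of miR-451 on D2 over B2 (2.18). These comparisons were not tested, because the choice of miR-489 used them.

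**Figure D3:**
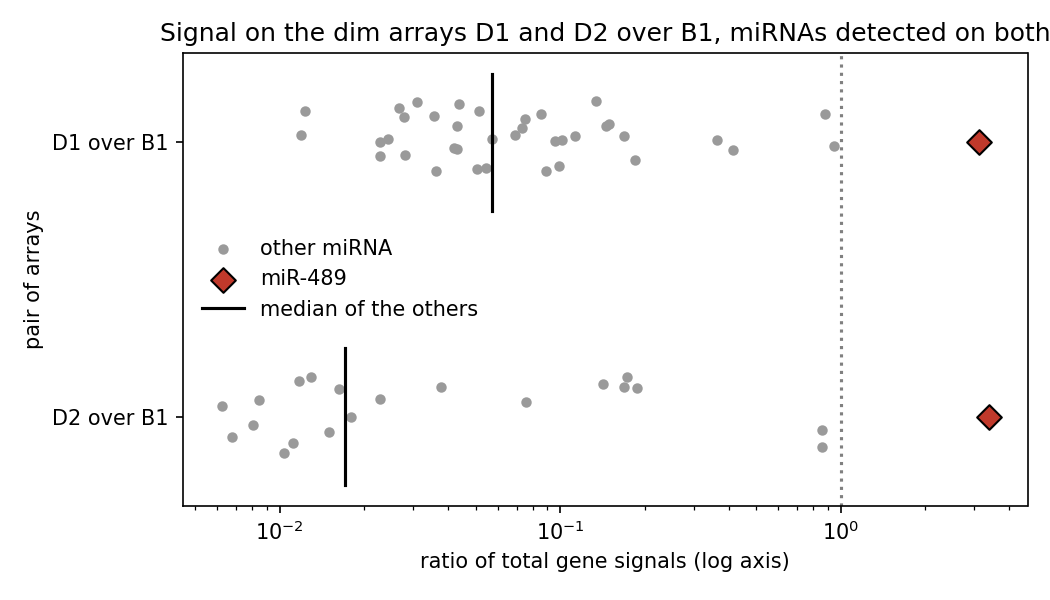
Ratio of the total gene signal on D1 over B1 and on D2 over B1 (log axis) for each miRNA detected on both arrays of the pair, with the median of the others as a bar. The diamonds of miR-489 lie at 3.11 and 3.38, and the medians at 0.0572 and 0.0171.

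No other miRNA had the detection pattern of miR-489. Of the 40 miRNAs detected on exactly 3 arrays, 38 were detected on the bright arrays, while miR-489 was seen on D1, D2 and B1 and miR-141, of the epithelial miR-200 family, on D2, B1 and B2. A total of 3 miRNAs were brighter on D1 or D2 than on each bright array. miR-371, of a cluster known from human embryonic stem cells, had 99.4 on D1 and was detected nowhere else. miR-451, a miRNA of red blood cells, had 39.4 on D2 and 18.1 on B2. Only miR-489 of the 289 was brighter on both.

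Its neighbour miR-653 was dark. It was the only miRNA with a probe within 10000 bases of miR-489, at a distance of 740 bases, and it is shown because it shares the host gene.
miR-653, 19-base probe: caatagagattgtttcaac
miR-653, 20-base probe: caatagagattgtttcaacA
The longer one is listed at chr14:21926784-21926802 on canFam2, again with the higher number first. miR-653 was detected on none of the 6 arrays. Its probes had mean spot signals of -1.47 ± 1.77 and 1.22 ± 3.05 on D1 and of -0.15 ± 2.003 and -0.43 ± 1.95 on D2 (SD, n = 20 spots), where miR-489 stood between 41.5 and 50.6. On none of the arrays was a spot of miR-653 well above background. The yields of the probes of both miRNAs were not compared, so the signals do not give a ratio of molecules.

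The Sca1 comparison asks which miRNAs differ in the cells that the antigen marks. By scanner file miR-489 did not pass. Its scaled log2 level, from the 15-base probe, was -2.03 on D1 and 0.11 on D2 in CMT-U27, -7.14 on B1 and -16.96 on B2 in CMT-U309, and -1.77 on D3 and -9.19 on B3 in P114 (Sca1+ first in each line). These levels are relative to the bright probes of the array, so a dim array gives a high level. The log2 difference, Sca1+ minus Sca1-, was 5.03 (SE 2.71, adjusted p = 0.995 with limma over 80 miRNAs, n = 3 pairs). By these scaled levels it was higher in Sca1+ in 2 of 3 lines, with differences of -2.14 in CMT-U27, 9.82 in CMT-U309 and 7.42 in P114. Without scaling they were -0.27, 10.5 and 1.68, so most of the size in P114 came with the scaling of dim D3 against bright B3. The last pair were both not detected, and most spots of B2 were at the floor set for signals of 0 or below, so neither size is exact. No miRNA of the 80 passed (0% called, 0 at an unadjusted p under 0.05), and their median difference was -0.81. The value of miR-489 was the highest of the 80 by this floor. It entered the 80 only through D1, D2 and B1, whose signals also chose it, with D1 and D2 in opposite fractions here. Neither its rank nor its p-value is thus independent of that choice. With signals floored at the detection limit, the lowest signal among probes well above background, its difference was 0.80. That of CMT-U309 then had the opposite sign (-1.12). This sign was set by the limits, since the undetected B2 was raised to 21.3, above the limit of 13.0 on B1. With the floor of the main fit, the miR-489 difference was 2.64 without CMT-U309, against 8.62 without CMT-U27.

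By the value table, miR-489 was detected in every Sca1+ sample and in no Sca1- sample. The total gene signals of the Sca1+ samples were 121.9 in CMT-U27 (D1), 132.8 in CMT-U309 (D2) and 39.2 in P114 (B1), and none of the Sca1- samples (B2, D3 and B3) reached detection. The groups did not overlap. Of the 124 miRNAs detected anywhere, 1 had non-overlapping fractions in this direction (0.806% called) and 0 in the other, and that 1 was miR-489. By scanner file 0 of 124 were apart in either direction (0% called). No test is given for miR-489 in this reading, because the values of D1 and D2 that chose it are both Sca1+ there. In this reading an approximate lower bound of the mean level in Sca1+ over Sca1- was 2.42-fold (n = 3 each). The undetected arrays were taken at the lowest signal among probes well above background, or at their own signal if higher. The bound is not strict, because the 15-base probe behind it had only 8 of 20 spots well above background on B1. Its mean there, 12.998, was just under that lowest signal on B1, 13.001. This bound was 1.85 without scaling, and 0.818, so no fold, without D2. Without other single arrays it was 10.1 (B1), 7.85 (D3), 1.72 (D1), 1.49 (B2) and 1.22 (B3). The arrays D1, D2 and B1 are also row 1 of the slide and B2, D3 and B3 row 2, so in this reading fraction and slide row cannot be told apart. By scanner file the fractions of a line lie in different rows in CMT-U309 alone. A term for slide row therefore only takes that line out of the comparison, and its log2 difference, 2.64 (SE 4.40), is the one without CMT-U309 and does not bear on slide row.

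**Figure D4:**
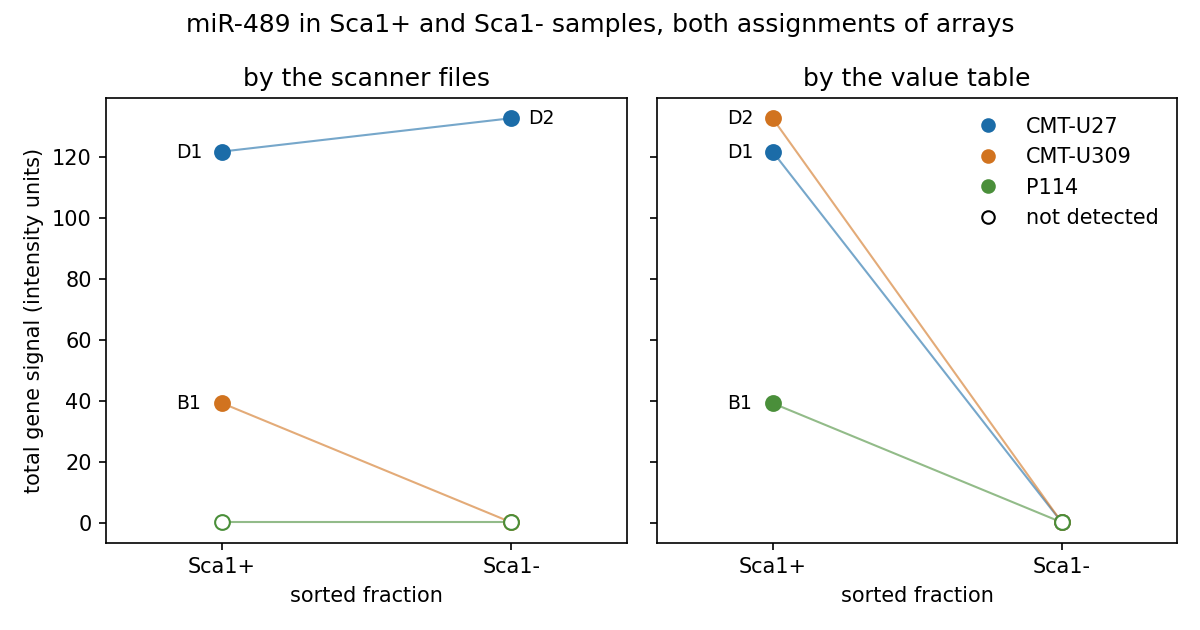
Total gene signal of miR-489 (intensity units) in Sca1+ and Sca1- samples, left by scanner file and right by value table, with lines joining the fractions of a cell line and open circles for arrays where it was not detected. By value table all 3 detected arrays are Sca1+; by scanner file 2 are Sca1+ and 1 is Sca1-.

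The readings agree on the fraction of 4 arrays, D1 and B1 as Sca1+ and B2 and B3 as Sca1-. Both D1 and B1 detected miR-489, but D1 is dim and its value was used to choose miR-489. Of the bright arrays only B1 detected it. Its signals there, 15.9 and 13.0 by probe, were below the lowest signal among probes well above background on B2, 21.3, and on B3, 15.999. The bound of B1 over B2 and B3 was under 1, so no fold is given for the bright arrays alone. A fit of these arrays, with no term for line, called 4 of 90 miRNAs (4.44% called), and miR-489 was not among the tested ones because 1 array detected it. Its Sca1+ arm is B1 alone against 2 arrays, and the lone sample is assumed to vary like B2 and B3. In either assignment 1 of the Sca1- arrays is of another line than B1: B3 by scanner file, B2 by value table.

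By scanner file CMT-U27 stood above CMT-U309 and P114 in total gene signal. CMT-U309 stood above P114 through B1 alone, since miR-489 was not detected on B2, D3 or B3. The probe means of B2 were below those of D3 and B3, so no order of CMT-U309 and P114 is given. The signals of D1 and D2 against the bright arrays were used to choose miR-489, so the place of CMT-U27 gets no test. The bound of the mean level in CMT-U27 over P114 was 6.20-fold with scaling (n = 2 each) and 3.24-fold without. P114 is described as grown with macrophages, so line and culture cannot be told apart. Both CMT-U27 arrays are dim, while P114 has the dim D3 and the bright B3. Without D3 the bound was 40.1, and without B3 it was 0.960, so no fold. Without D1 it was 13.0 and without D2 2.95. By value table the place of CMT-U27 does not hold, since each line has 1 array with and 1 without detection.

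The miRNAs whose scaled log2 levels ran most like miR-489 over the 6 arrays were miR-494 (Pearson r = 0.86), miR-223 (0.75), miR-197 (0.65), miR-149 (0.59) and miR-7 (0.32), among the other miRNAs detected on at least 3 arrays. The arrays share a slide and fall into a bright and a dim set, and without scaling r was -0.16, -0.83, -0.65, -0.85 and -0.56 for the same miRNAs, so the likeness follows the scaling. miR-223 and miR-149 stayed within 59.6 to 80.9 and 33.5 to 107.2 units, and miR-494 ran from 57.7 on D3 to 2723 on B1. miR-7 was detected on bright arrays only.

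Of the 25 other miRNAs on the array that were listed as tied to mammary stem cells, 22 were detected somewhere: 9 on D1, 5 on D2, 22 on B1, 15 on B2, 3 on D3 and 14 on B3. Of all 288 other miRNAs, 123 (42.7%) were detected somewhere: 38 on D1 (13.2%), 21 on D2 (7.29%), 110 on B1 (38.2%), 91 on B2 (31.6%), 9 on D3 (3.12%) and 89 on B3 (30.9%). None of the 25 was brighter on both D1 and D2 than on each bright array, and neither was any of the 288, so this is not particular to the list. let-7a, which rises with differentiation, had 126.4 on D1, 53.1 on D2, 4537 on B1 and 3025 on B2. miR-200c, which represses the ZEB factors, had 1427 on B1 and was not detected elsewhere. miR-22 had 78.4 on D1 and between 582.7 and 838.6 on the bright arrays. In the Sca1 comparison by scanner file 15 of the 25 were tested, 0 passed, and their median log2 difference was -0.85, against -0.81 over all 80 miRNAs.

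Of 10 other miRNAs of satellite cells and muscle, 3 were detected, miR-195, miR-497 and miR-499, and 0 of them on D1 or D2. These counts stand beside 42.7% of all other miRNAs detected somewhere, 13.2% on D1 and 7.29% on D2, and with 10 members no difference from those shares is read from them. The muscle miRNAs miR-1, miR-133a, miR-133b and miR-206 were detected on no array. Of the 7 epithelial markers 5 were detected on B1, with a summed signal of 5129, 1 on B2 and 0 on B3. On D2 1 was detected (miR-141, 23.9) and on D1 0. Of 5 mesenchymal markers 0 were detected on D1 or D2, and of 5 leukocyte markers only miR-223 on each of them. The erythroid marker miR-144 and the endothelial marker miR-126 were detected on no array. Mammary cancers are mostly epithelial tumours. The marker counts on D1 and D2 stand beside the same 13.2% and 7.29% of all other miRNAs. Those on B1, B2 and B3 stand beside 38.2%, 31.6% and 30.9%. Nothing about a cell type is read from lists this short. D1 and D2 are dim for nearly all miRNAs, and the part of that dimness was not tested.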

How the data were processed

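Total RNA of 6 samples was hybridized to Agilent miRNA arrays on 1 slide. The deposited scanner files hold spot intensity. Feature Extraction made them, as version 10.10.1.1 by the headers and version 10.7.3.1 by the submitters' processing notes. The processed intensity had its background subtracted and a spatial trend removed, per the file headers, with no scaling across arrays. The labels name the dye Cy5, but each file holds 1 green channel. The deposited value table holds the total gene signal as intensity: 2 of its 6 columns equalled the scanner file of the same sample and 4 that of another (relative tolerance 0.0001). That deposited intensity is linear and uncentred, with a median of 0.1 in every column, the value of undetected miRNAs.

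The fits set signals of 0 or below to the lowest positive signal of the array, took log2, averaged spots without outliers and controls, and subtracted the 75th percentile over the 10 probes (6 miRNAs) on which over 50% of spots were well above background on all 6 arrays. For each miRNA the probe of highest mean was kept. Those detected on at least 3 arrays were fitted in limma 3.58.1 (R 4.3.3, data.table version 1.17.8) with terms for fraction and line, where the line pairs the samples since each line gave both fractions, and p-values were adjusted by Benjamini-Hochberg at 0.05. The code was tested on simulated data. The number of arrays limits the precision. miR-489, the lists and the rule for named miRNAs (its genomic neighbours, the 5 most like it, those brighter on D1 or D2, those next to it in rank, and list members) were chosen with earlier results of these data known. The alternatives were normexp background, other scalings and floors, other summaries of probes, no filter, no term for line, a term for slide row, the value table's assignment and leaving out samples.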

Additional observations from a re-analysis of the deposited data

Results flagged for a closer look

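The log2 difference of miR-489 between Sca1+ and Sca1- cells had opposite signs in 2 lines by scanner file, at -2.14 in CMT-U27 and 9.82 in CMT-U309, with 1 sample per fraction and line. The difference between the lines was not tested. With signals floored at the detection limit both were below 0 (-1.87 and -1.12), and without scaling that of CMT-U27 was -0.27. Under that floor the undetected B2 was set to its limit of 21.3, above the limit of 13.0 on B1. The sign in CMT-U309 was therefore set by the limits and is no reading of miR-489 on B2.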

How the results depend on the processing

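The log2 difference of miR-489 in Sca1+ minus Sca1- cells by scanner file was 5.03 and did not pass. In 16 alternatives with a test it was above 0 and in 0 of them did it pass, with limma's adjusted p between 0.661 and 1.00. They are 12 distinct fits, since leaving out either sample of a line removes the pair and the term for slide row repeats the fit without CMT-U309. Values ran from 0.80 (floor at the detection limit) to 5.69 (mean of all probes), with 1.35 by normexp background, 3.94 by total gene signal, and 2.64 to 8.62 without single samples. By the assignment of the value table it was 6.28, a description with no test. Without the term for line, the replicate block, the difference was 5.03 (SE 4.24) and no call changed. The count of miRNAs past the threshold was 0 in 17 of 18 alternatives (14 distinct fits), with up to 3 at an unadjusted p under 0.05. It was 4, all lower in Sca1+, without the 3 dim arrays, an alternative chosen after the data were seen, in which the Sca1+ arm is B1 alone against 2 arrays. That fit leaves out miR-489, which B2 and B3 did not detect. The approximate bound of Sca1+ over Sca1- by value table was 2.42, and between 1.85 and 4.71 over the other settings. Without single samples it was between 0.818 and 10.1. The bound of CMT-U27 over P114 by scanner file was 6.20, between 3.04 and 15.2 over the other settings and between 0.960 and 40.1 without single samples. On B2, D3 and B3 between 0 and 2 of 40 miR-489 spots were well above background, so these arrays give only bounds.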
